A study of Mus musculus with 18 samples.

Results

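The genes described are 5 annexin genes (Anxa1, Anxa2, Anxa3, Anxa5 and Anxa6) and 5 S100 genes (S100a4, S100a6, S100a10, S100a11 and S100a1), taken by symbol from a table of 24419 genes. All 10 were in the table and all 10 passed the filter on low values, which asked for 1 FPKM or more in any mouse and left 13333 genes. FPKM is the number of sequenced fragments for each kilobase of a transcript, scaled to the mapped total. RNA was sequenced from the hearts of 18 male C57BL/6 mice, 8 weeks old, under pentobarbital anaesthesia, 3 in each of 6 groups. The controls, the sham mice of the study, were compared with AMI mice taken 10 min, 1 h, 6 h, 24 h and 72 h after the left anterior descending coronary artery was tied off near its origin, which models acute myocardial infarction (AMI). The tissue was left ventricle, in the AMI mice its infarcted part. It was sequenced whole, so fewer cells of a type and less RNA per cell cannot be told apart.

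Annexins are soluble proteins that bind the phospholipids of membranes when calcium rises. S100 proteins are small proteins with EF hands, the loops that hold calcium, and they mostly act by changing shape and binding a partner. The families meet in known pairs. Annexin A2 forms a complex with S100A10, annexin A1 binds S100A11, and several annexins gather at tears of the plasma membrane of muscle cells. S100A1 is the S100 protein of the cardiomyocyte, where it acts on the ryanodine receptor and the calcium pump of the sarcoplasmic reticulum. S100A4 and S100A6 are known from fibroblasts, macrophages and other non-muscle cells.

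The make-up of the 5 annexin and of the 5 S100 genes turned over within 72 h of ligation. In the sham mice S100a1 held 87.2% ± 0.991 of the summed FPKM of the 5 S100 genes and Anxa6 held 63.8% ± 1.496 of that of the 5 annexins (SD, n = 3). At 72 h these shares were 31.4% ± 4.15 and 26.1% ± 2.84. The other 4 S100 genes together went from 189 ± 11.6 to 1145 ± 54.0 FPKM, while S100a1 went from 1292 ± 82.1 to 526 ± 80.9 FPKM. The summed FPKM of the 5 S100 genes was 1481 ± 83.3 in sham hearts and 1671 ± 46.0 at 72 h. The 5 annexins had no such falling member, and their sum went from 289 ± 9.54 to 916 ± 61.1 FPKM. Other members of both families are not in these sums, such as S100a9, with a mean of 382 FPKM at 6 h, and Anxa7, with 155 FPKM at 24 h. No test was made on sums or shares.

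**Figure D1:**
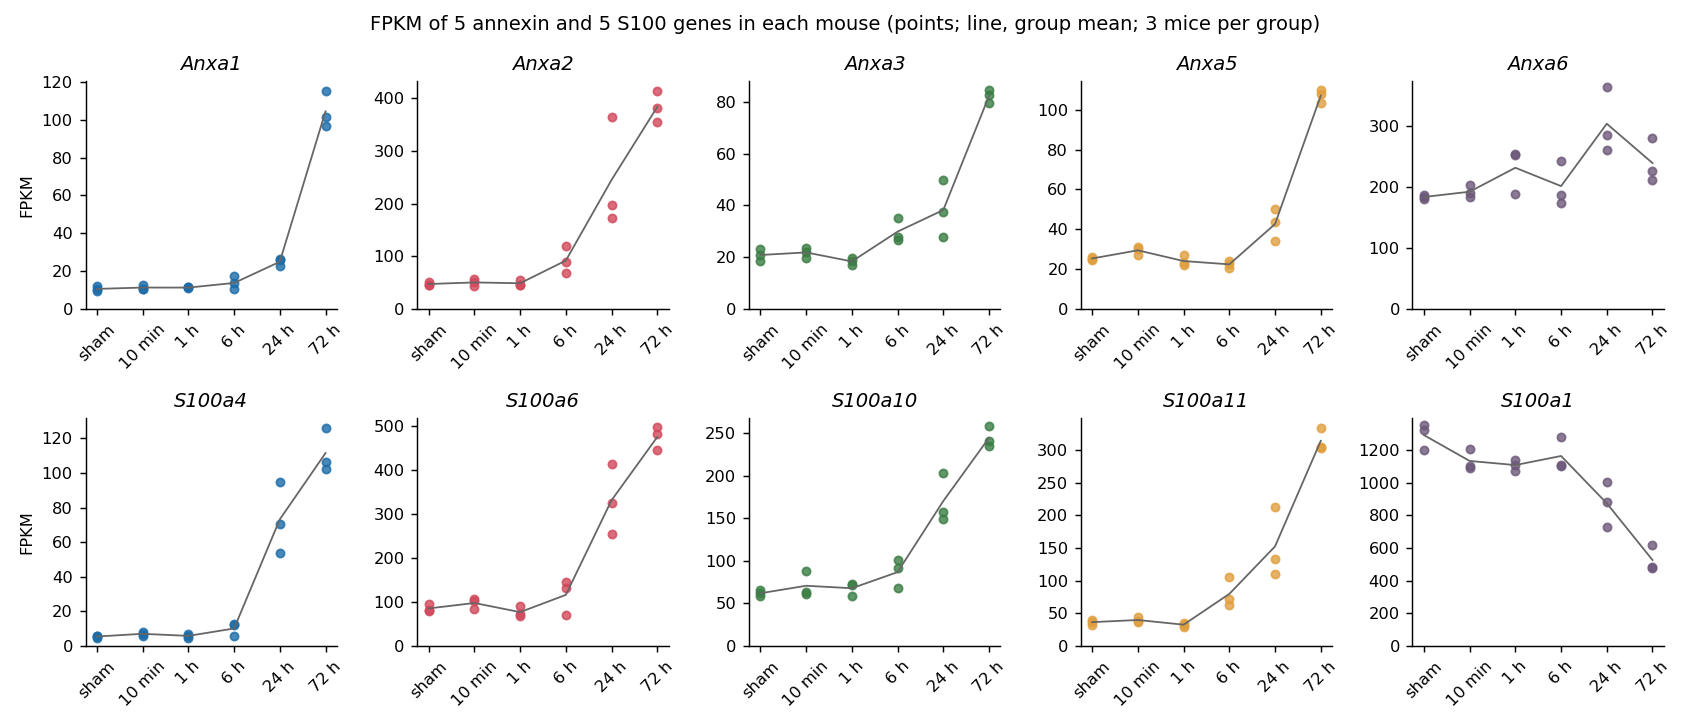
FPKM of each gene in each mouse by time after ligation (points, single mice; line, mean of 3 mice; the scale of the y axis differs between genes and starts at 0). Anxa1 stays near 11 FPKM up to 1 h and reaches 104 FPKM at 72 h, and S100a1 is the gene that ends below its sham level.

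Each time was compared with sham by limma on log2(FPKM + 1), p-values were adjusted by Benjamini-Hochberg across the whole table, and a gene is called at an adjusted p under 0.05. The log2 fold change, written log2FC, subtracts the mean log2(FPKM + 1) of the earlier or sham group, and SE is its standard error. Genes with the same value in all 6 mice were left out of a comparison, so 13297 to 13330 genes were tested. At 10 min 0 of the 10 genes were called in either direction (0.248% of all genes tested were called higher and 0.0978% lower), and 3 had an unadjusted p under 0.05, namely Anxa5, S100a1 and S100a4, as did 1955 of all 13297 genes. The 1 h mice gave 0 calls too (0.669% of all genes higher, 0.0526% lower), with Anxa6 and S100a1 at an unadjusted p under 0.05, as were 1673 of all 13300 genes. Without the first 1 h mouse Anxa6 was called higher at 1 h (log2FC 0.46, adjusted p = 0.00777 by limma). At 6 h 3 genes were higher and 0 lower (11.6% of all genes higher, 16.8% lower). At 24 h and again at 72 h 9 were higher and 1, S100a1, was lower, where 26.2% and 53.1% of all genes were higher and 11.4% and 24.2% lower. The median log2 fold change of the 10 genes was 0.11, -0.02, 0.42, 1.29 and 2.25 in order of time, beside 0.02, -0.02, -0.08, 0.13 and 0.29 for all genes. These comparisons share the 3 sham mice.

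Depth could only be estimated, as no counts are given. From the lowest FPKM values it ran from 0.813 to 1.32 times that of the first sham mouse, with a group median of 0.858 at 10 min and 1.3 at 72 h. The scale of the table moved with time. Median-of-ratios scaling brought the all-gene median log2FC of the 72 h mice from 0.29 to 0.04 and quantile normalization to -0.10, and from 24 h against 6 h it went from 0.20 to 0.01 with either. The split of calls over all genes went with it. At 72 h 7081 genes were higher and 3226 lower as deposited, 5243 and 4752 with median-of-ratios scaling, and 4387 and 5709 with quantile normalization. For 24 h these counts were 3496 and 1516, 2535 and 2317, and 2214 and 2692. For 6 h they were 1543 and 2233, 1977 and 1513, and 1691 and 2125. Of the 10 genes, Anxa6 at 72 h is the one whose call against sham was lost with a scaling.

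**Figure D2:**
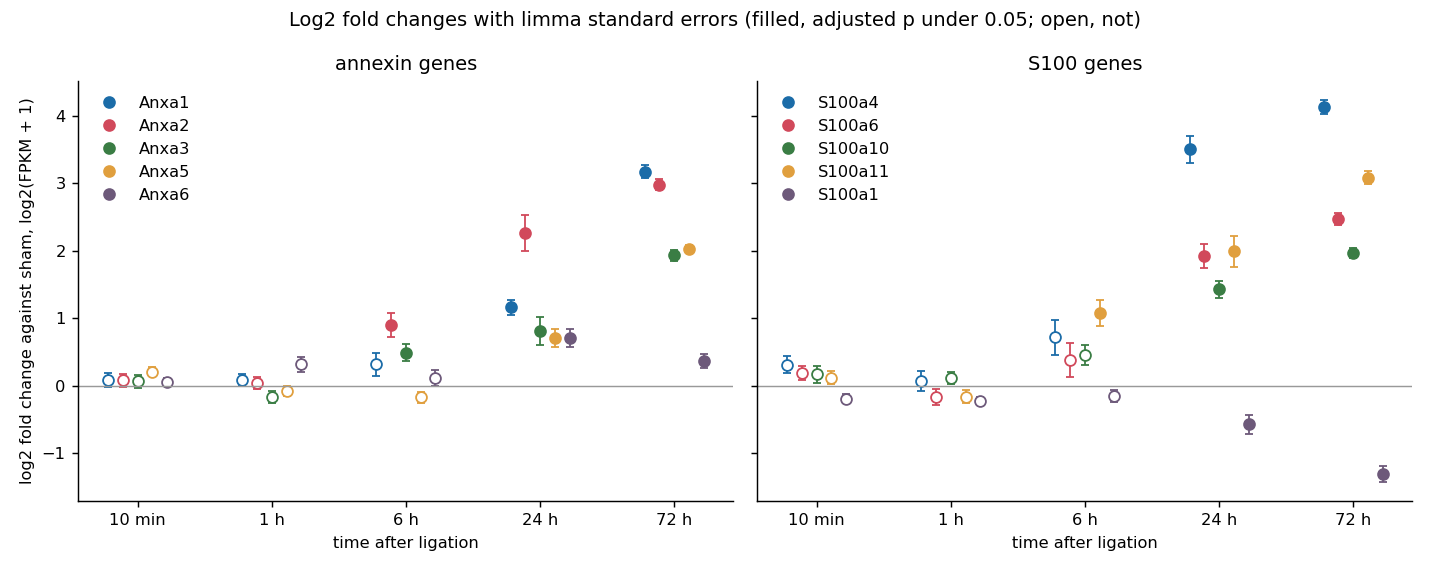
Log2 fold change of each gene against sham at each time (y axis, difference of mean log2(FPKM + 1); bars, limma SE; filled points, adjusted p under 0.05; open points, not; 3 mice per group). At 72 h the annexins spread from 0.37 for Anxa6 to 3.17 for Anxa1, and the S100 genes from -1.30 for S100a1 to 4.13 for S100a4.

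Anxa2 and S100a11 were called against sham at each time from 6 h on, and their courses over the 18 mice were the most alike of any pair of the 10 genes. Anxa2 (chr9:69453620-69491795, plus strand, mm10) had 45.8, 44.97 and 52.2 FPKM in the sham mice and 119, 68.7 and 88.5 FPKM at 6 h (log2FC 0.90 ± 0.184 SE, adjusted p 0.0126). S100a11 (chr3:93520488-93526287, plus strand, mm10) had 37.1, 31.7 and 40.2 FPKM in the sham mice and 105, 62.3 and 71.0 FPKM at 6 h (log2FC 1.08 ± 0.191 SE, adjusted p 0.00779). For both genes every 6 h mouse lay above every sham mouse, and the second 6 h mouse was the lowest of its group. At 24 h Anxa2 had 173, 197 and 364 FPKM and S100a11 had 111, 133 and 213 FPKM, mouse 3 of 24 h being the highest for both. At 72 h they reached 383 ± 29.4 and 314 ± 17.5 FPKM (SD, n = 3), 8.04 and 8.64 times their sham means (log2 fold changes 2.98 and 3.08, adjusted p = 2.61e-08 and 3.25e-08 by limma). Over the 18 mice, each of these genes had the other as its nearest gene, by the root mean square difference of log2(FPKM + 1) minus the own sham mean, which was 0.175. The search left out symbols of the form Gm plus digits, Rik or a GenBank accession. The next gene for Anxa2 was LOC100038947 (0.18), listed at 0 in the sham mice, and the next for S100a11 was Arpc1b (0.184), which encodes a subunit of the complex that branches actin filaments.

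The start regions of these 2 genes are shown because the genes moved together, and that of S100a1 because it fell. Each runs from 250 bases before to 50 after the start, is credited to RefSeq on GRCm38.p6, the assembly of mm10, and reads 5′ to 3′ on the strand of the gene. Capitals mark the motifs searched on both strands, the AP-1 motif TGAGTCA, the GC box GGGCGG, the TATA box TATAAA and the MCAT motif CATTCC.
Anxa2, chr9:69453433-69453732: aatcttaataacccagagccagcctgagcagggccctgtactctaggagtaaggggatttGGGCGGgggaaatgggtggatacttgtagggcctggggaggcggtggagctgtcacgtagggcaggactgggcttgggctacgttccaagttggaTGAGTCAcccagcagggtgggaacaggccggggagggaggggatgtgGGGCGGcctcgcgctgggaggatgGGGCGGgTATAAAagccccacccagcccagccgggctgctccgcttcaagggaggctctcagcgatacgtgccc
S100a11, chr3:93520246-93520545: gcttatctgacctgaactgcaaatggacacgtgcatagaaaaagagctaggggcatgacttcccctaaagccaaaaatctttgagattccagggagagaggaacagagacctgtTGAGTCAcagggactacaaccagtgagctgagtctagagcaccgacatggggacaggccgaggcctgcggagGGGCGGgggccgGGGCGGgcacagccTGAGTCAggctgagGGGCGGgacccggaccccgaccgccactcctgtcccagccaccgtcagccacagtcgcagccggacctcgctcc
S100a1, chr3:90514281-90514580, minus strand: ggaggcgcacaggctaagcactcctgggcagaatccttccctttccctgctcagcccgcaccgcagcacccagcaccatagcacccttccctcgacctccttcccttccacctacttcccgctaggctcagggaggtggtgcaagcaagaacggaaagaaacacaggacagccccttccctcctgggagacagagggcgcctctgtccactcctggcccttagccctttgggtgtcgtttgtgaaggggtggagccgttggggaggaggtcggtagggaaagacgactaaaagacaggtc
The AP-1 motif was found once in Anxa2, 95 bases before the start, and in S100a11 at 136 and 38 bases before it. Of 32851 windows of the same length in the RefSeq table, 5.2% held it. Both windows also held 3 GC boxes, a motif found in 35.7% of all windows, and Anxa2 had a TATA box 17 bases before the start (13.6% of all windows). In the S100a1 window, with 61.0% G and C, none of the 4 motifs was found. Of the 10 genes, 7 had a window, and Anxa3, Anxa6 and S100a10 had none. In the other 4 windows, S100a4 held a TATA box 31 bases before the start, Anxa1 held one at 32 bases and a MCAT motif at 236 bases (14.7% of all windows), and in S100a6 and Anxa5 none of the 4 was found. A match describes the letters only.

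Anxa3 (chr5:96793339-96845966, plus strand, mm10), an annexin known from neutrophils and endothelium, was the remaining gene called at 6 h. It had 20.7, 18.7 and 23.2 FPKM in the sham mice and 35.1, 28.0 and 26.7 FPKM at 6 h (log2FC 0.49 ± 0.127 SE, adjusted p 0.027), and the groups did not overlap. At 24 h its mice had 27.7, 37.4 and 49.7 FPKM, a wide spread, and the call at 24 h (log2FC 0.81, adjusted p = 0.0225) was lost without any single sham mouse or without the second 24 h mouse (adjusted p from 0.0535 to 0.0822, limma). At 72 h the 3 mice lay between 79.6 and 84.6 FPKM, 3.93 times the sham mean (log2FC 1.93 ± 0.083 SE, adjusted p 1.69e-07). Its nearest genes were Dram1, a lysosomal membrane protein induced by p53 (0.118), and Prkcdbp, a protein of caveolae (0.124).

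The 6 h calls depended on single mice. Compared with 1 h, in a test that shares the 6 h mice, the same 3 genes were higher at 6 h and 0 were lower (9.32% of all genes higher, 11.2% lower, which are 1241 and 1490 genes, against 1571 and 1098 with median-of-ratios scaling), with log2 fold changes of 0.86 for Anxa2, 0.66 for Anxa3 and 1.24 for S100a11 (adjusted p = 0.0205, 0.0119 and 0.00686, limma). Without the second 6 h mouse 7 genes were higher than sham at 6 h and 6 higher than at 1 h, S100a4, S100a6 and S100a10 among them in each comparison. Without the first or without the second sham mouse only S100a11 was called against sham, and without the second 1 h mouse only S100a11 was called against 1 h. S100a10 at 6 h was at the threshold, with an adjusted p of 0.0509 and of 0.00551 to 0.0471 in 7 of the alternatives tried.

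Leukocyte markers differed widely between these mice. The summed FPKM of 5 neutrophil markers, all of them higher than sham at 6 h, was between 2.32 and 4.99 in the sham mice and was 997, 116 and 375 in 6 h mouse 1, 2 and 3. At 24 h it was 209, 42.6 and 965, with the highest value in the third mouse, as for Anxa2 and S100a11, and the lowest in the second, where those genes were lowest in the first. Most of this sum came from S100a8 and S100a9, with 167 and 768 FPKM in 6 h mouse 1 and 161 and 721 in 24 h mouse 3. At 6 h Csf3r was lowest in mouse 3, at 3.11 FPKM beside 3.27 in mouse 2, while S100a8, S100a9, Cxcr2 and Retnlg were lowest in mouse 2. The 4 monocyte markers, again all higher at 6 h, summed to between 2.05 and 2.84 FPKM in the sham mice, to 37.6, 12.1 and 16.9 at 6 h and to 66.8, 39.0 and 184 at 24 h. Chil3 alone had 26.4 FPKM in 6 h mouse 1 and 142 FPKM in 24 h mouse 3. At 24 h Ccr2 was lowest in mouse 1 (12.1, 15.4 and 27.4 FPKM), while Ly6c2, Plac8 and Chil3 were lowest in mouse 2. Of all genes, 11.6% were higher than sham at 6 h. No marker of these 2 lists was at 0 in all mice of a group. The 7 cardiomyocyte markers summed to 50361, 62125 and 53767 FPKM in the 6 h mice and to 48736, 49892 and 39302 FPKM in the 24 h mice. The part of these markers in the levels of Anxa2, S100a11 and the other genes was not tested.

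S100a10 (chr3:93555080-93564643, plus strand, mm10) encodes the partner of annexin A2 and was first called at 24 h. It had 61.6, 58.3 and 65.6 FPKM in the sham mice. The 6 h mice had 101, 67.5 and 90.9, the 24 h mice 149, 158 and 203, and the 72 h mice 241, 258 and 234. Every mouse from 6 h on lay above every sham mouse. The log2 fold change was 1.43 at 24 h (SE 0.128, adjusted p = 0.00173) and 1.97 at 72 h (SE 0.072, adjusted p = 7.32e-08). The ratio of Anxa2 to S100a10 FPKM was 0.770 ± 0.0265 in sham hearts and 0.727 ± 0.0926 and 0.729 ± 0.0707 at 10 min and 1 h (SD, n = 3). It was 1.055 ± 0.1055, 1.40 ± 0.343 and 1.57 ± 0.0802 in the 6 h, 24 h and 72 h groups. From 6 h on the lowest ratio of any mouse, 0.973, was above the highest of the sham, 10 min and 1 h mice, 0.829. The nearest genes of S100a10 were Slc39a6, a zinc transporter (0.153), and Pla2g4a, the cytosolic phospholipase A2 that releases arachidonic acid (0.167).

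Anxa1 (chr19:20373428-20390944, minus strand, mm10) encodes an annexin known to damp neutrophil entry through the formyl peptide receptors, and most of its rise came after 24 h. The sham mice had 10.7, 9.42 and 11.99 FPKM, the 6 h mice 13.7, 10.6 and 17.3, the 24 h mice 22.7, 25.8 and 26.5, and the 72 h mice 96.7, 115 and 101. Sham and 6 h mice overlapped (adjusted p = 0.192), and the mice at 24 h and at 72 h all lay above the sham mice. The mean was 2.34 times that of sham at 24 h (log2FC 1.16 ± 0.113 SE, adjusted p 0.00207) and 9.76 times at 72 h (log2FC 3.17 ± 0.099 SE, adjusted p 3.49e-08). From 24 h to 72 h the log2 fold change was 2.02 (SE 0.111, adjusted p = 3.78e-05). Its binding partner S100a11 was called from 6 h on, and the ratio of Anxa1 to S100a11 FPKM was lower at 6 h and 24 h than before or after. It was 0.294 ± 0.00603 in sham hearts and 0.290 ± 0.0491 and 0.354 ± 0.0414 at 10 min and 1 h (SD, n = 3). The 6 h, 24 h and 72 h groups had 0.181 ± 0.0575, 0.174 ± 0.0438 and 0.332 ± 0.0124. The 6 h and 24 h mice, at most 0.243, lay below all sham mice, at least 0.287. The 1 h mice and the 72 h mice lay above all sham mice, and the 10 min mice ran from 0.246 to 0.343. An antisense noncoding gene, 1500015L24Rik, covers all 17517 bases of Anxa1 and is listed at 0 in every mouse, and whether the counting used strand is not given in the sources used here. Gm16144, on the other strand, shares 2570 bases with Anxa2, and Gm42603, on the same strand, shares 2146 bases with Anxa3, and how reads were split between these was not analysed here. The nearest gene to Anxa1 was Lgmn, the lysosomal protease legumain (0.158), with 51.3 ± 2.09 FPKM in sham hearts and 533 ± 33.8 at 72 h, followed by Nxpe5 (0.158). Nxpe5 had 0.0246 ± 0.0244 FPKM in sham hearts and 9.62 ± 0.448 at 72 h, a larger ratio than that of Anxa1.

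**Figure D3:**
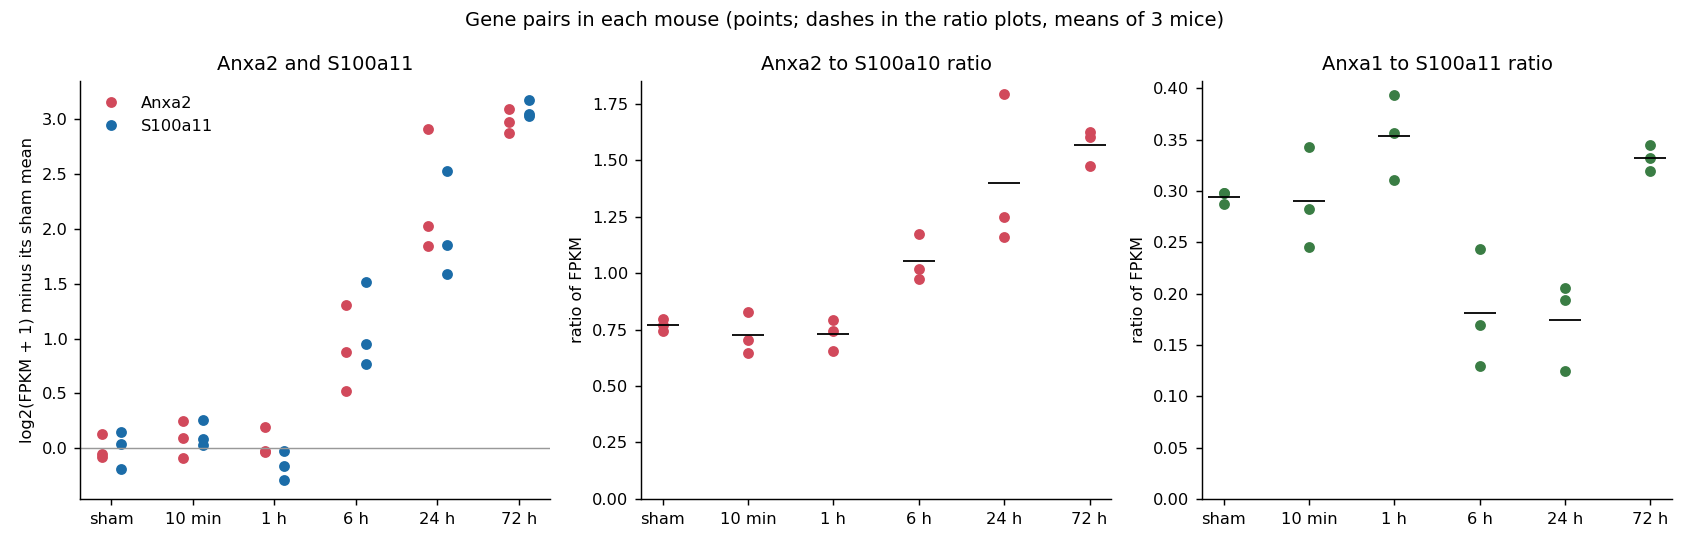
Left, log2(FPKM + 1) of Anxa2 and S100a11 minus the sham mean of each gene, in every mouse; middle and right, ratio of FPKM of Anxa2 to S100a10 and of Anxa1 to S100a11 (points, single mice; dashes, means of 3 mice). The first ratio goes from 0.770 in sham hearts to 1.57 at 72 h, and the second is lowest at 6 h and 24 h, 0.181 and 0.174.

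The 4 listed receptors of annexin A1 and of S100 proteins had low levels in the sham mice, and other receptors were not listed. Of Fpr1, Fpr2, Fpr3 and Ager, the receptor for advanced glycation end products, only Fpr1 and Fpr2 reached the filter, and both were higher at 6 h and at 72 h. Fpr2 had 0.149 ± 0.0207 FPKM in sham hearts and 7.002, 1.52 and 2.46 FPKM at 6 h (log2FC 1.84 ± 0.375 SE, adjusted p 0.0126). At 24 h it had 2.41, 0.694 and 17.4 FPKM, without a call (adjusted p = 0.0745), and its highest mouse at each of these times was also the one with the highest sum of neutrophil markers. Ager never had a mean above 0.258 FPKM.

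S100a4 (chr3:90603771-90606045, plus strand, mm10), also named fibroblast-specific protein, had the largest ratio to sham of the 10 genes at 24 h and 72 h. The sham mice had 5.58, 4.77 and 5.90 FPKM, the 6 h mice 12.5, 5.71 and 12.004, the 24 h mice 53.9, 70.6 and 95.1, and the 72 h mice 102, 126 and 107. At 6 h the second mouse lay within the sham range and the groups overlapped (adjusted p = 0.0745). The level at 24 h was 13.5 times that of sham (log2FC 3.50 ± 0.199 SE, adjusted p 0.00046) and at 72 h 20.6 times (log2FC 4.13 ± 0.1 SE, adjusted p 1.47e-08). Between 6 h and 24 h the log2 fold change was 2.78 (SE 0.309, adjusted p = 0.0103), the largest of the 10 in that interval. In the annotation a protein-coding gene, Gm42674, overlaps S100a4 on the same strand over 2115 bases, and how the authors' counting split such reads is not given in the sources used here. The nearest genes were Cd52, a surface protein of leukocytes (0.334), and Ccr2, the chemokine receptor of inflammatory monocytes (0.354), both at a larger distance than the nearest genes of the other 9. That distance is not scaled to the size of a change, which was largest for S100a4 at 24 h and 72 h.

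S100a6 (chr3:90612882-90624181, plus strand, mm10), or calcyclin, ranked second in level among the 5 S100 genes of the sham mice, with 94.9, 81.6 and 79.3 FPKM. At 6 h it had 146, 70.2 and 132 FPKM, the second mouse below all sham mice (adjusted p = 0.29). The 24 h mice had 256, 325 and 414 FPKM and the 72 h mice 447, 482 and 498 FPKM, all above the sham mice. The mean was 3.89 times that of sham at 24 h (log2FC 1.92 ± 0.176 SE, adjusted p 0.0018) and 5.58 times at 72 h (log2FC 2.47 ± 0.087 SE, adjusted p 6.19e-08). Its nearest genes were Dpysl3, a protein of the cytoskeleton known from growing axons (0.223), and Sdf2l1, a chaperone cofactor of the endoplasmic reticulum (0.229).

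Anxa5 (chr3:36448923-36475894, minus strand, mm10), the annexin used as a probe of dying cells because it binds phosphatidylserine, lay on both sides of its sham level at the early times. It had 26.2, 24.8 and 25.3 FPKM in the sham mice, while the 10 min mice had 30.0, 27.2 and 31.4 and the 6 h mice 24.1, 22.4 and 20.8. Later the 24 h mice had 34.3, 43.7 and 50.0 and the 72 h mice 103, 108 and 110 FPKM. The 10 min mice all lay above and the 6 h mice all below the sham mice, both without a call (log2 fold changes 0.21 and -0.17, adjusted p = 0.235 and 0.149). At 24 h its log2 fold change was 0.71 (SE 0.137, adjusted p = 0.0111, and 0.0502 without the second sham mouse), and at 72 h it was 2.03 (SE 0.060, adjusted p = 2.82e-08), 4.21 times sham. The nearest genes were Cmtm3 (0.128) and Ppib, a prolyl isomerase of the endoplasmic reticulum that works on collagen (0.128).

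Markers of other cell types changed over the same interval. The 8 fibroblast markers summed to between 266 and 330 FPKM in the sham mice, between 326 and 445 at 24 h and between 3431 and 4063 at 72 h, when 8 of 8 were called higher than sham. At 24 h 5 of the 8 were higher and Dpt was lower (log2FC -0.65, adjusted p = 0.0263). Of 4 smooth muscle and pericyte markers, 3 were lower at 24 h and at 72 h, and Tagln was higher at 72 h (log2FC 2.21), so that the sum went from between 198 and 238 FPKM in the sham mice to between 392 and 488 at 72 h. The 6 macrophage markers went from between 142 and 159 FPKM in the sham mice to between 222 and 260 at 24 h and between 1192 and 1491 at 72 h, with 5 of 6 higher at 72 h. Markers of dividing cells rose as well, 4 of 4 at 72 h, with a sum between 70.9 and 104 FPKM beside 0.433 to 0.897 in the sham mice. Monocyte markers were all higher at 72 h (4 of 4, between 91.7 and 114 FPKM), and of 5 endothelial markers 0 were higher and 2 lower, with a sum between 409 and 515 FPKM beside 465 to 508 in the sham mice. Of all genes, 26.2% were higher and 11.4% lower than sham at 24 h, and 53.1% higher and 24.2% lower at 72 h. No marker of these lists was at 0 in all 3 mice of any group. Their part in the rise of the annexin and S100 genes was not tested.

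Anxa6 (chr11:54979108-55033445, minus strand, mm10), a large annexin with a doubled core and the annexin of the highest level in the sham mice, had the smallest log2FC of the 5 annexins at 72 h. It had 181, 185 and 187 FPKM in the sham mice, while the 1 h mice had 189, 254 and 253 and the 6 h mice 175, 243 and 188. Later the 24 h mice had 262, 286 and 365 and the 72 h mice 212, 227 and 281 FPKM. All mice at 1 h, 24 h and 72 h lay above the sham mice, but at 1 h without a call (adjusted p = 0.321). At 24 h the log2 fold change was 0.71 (SE 0.129, adjusted p = 0.0093), and 0.56 and 0.58 with median-of-ratios scaling and quantile normalization (adjusted p = 0.0138 and 0.015, limma). The call at 72 h (log2FC 0.37 ± 0.104 SE, adjusted p 0.0104) was not held by these scalings, with log2 fold changes of 0.06 and 0.23 (adjusted p = 0.61 and 0.0992, limma). Relative to the median of all genes at 72 h, its log2 fold change was 0.08. The nearest genes were Hdac6, a deacetylase of tubulin (0.168), and Vps37b, a subunit of the endosomal sorting machinery (0.178).

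S100a1 (chr3:90511034-90514392, minus strand, mm10) was the gene that fell. It had 1355, 1322 and 1199 FPKM in the sham mice, while the 10 min mice had 1210, 1091 and 1101, the 1 h mice 1110, 1074 and 1142, and the 6 h mice 1108, 1280 and 1105. Later the 24 h mice had 1008, 884 and 730 and the 72 h mice 620, 482 and 477 FPKM. The 1 h mice already all lay below the sham mice, without a call (log2FC -0.22, unadjusted p = 0.0052, adjusted p = 0.208, limma), and at 6 h the groups overlapped. At 24 h the mean was 0.676 times that of sham (log2FC -0.57 ± 0.137 SE, adjusted p 0.0194), a call lost without any 1 of the sham mice (adjusted p from 0.0543 to 0.0814, limma). At 72 h it was 0.407 times that of sham (log2FC -1.30 ± 0.119 SE, adjusted p 1.32e-05), and from 24 h to 72 h the log2 fold change was -0.73 (SE 0.166, adjusted p = 0.0106, and 0.0507 without the third 72 h mouse).

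Of 4 genes of proteins that S100A1 is known to bind or act on (Ryr2, Atp2a2, Pln and Ttn), 4 of 4 were lower at 72 h, 2 at 24 h and 1 at 6 h, where 24.2%, 11.4% and 16.8% of all genes were lower. At 10 min and 1 h 0 of the 4 were called. Their summed FPKM was 9370 ± 461 and 8718 ± 482 at these times, beside 7868 ± 117 in sham hearts. The ratio of the mean to that of sham was 1.36 and 1.21 for Ryr2 and 1.20 and 1.13 for Atp2a2. For Pln it was 1.03 and 0.967, and for Ttn 1.04 and 0.990. Atp2a2, the calcium pump, went from 3965 ± 52.9 to 1347 ± 145 FPKM at 72 h (log2FC -1.56 ± 0.110 SE, adjusted p 2.77e-06), and Pln, its inhibitor, from 1591 ± 34.3 to 484 ± 65.2 FPKM (log2FC -1.72 ± 0.107 SE, adjusted p 1.31e-06). The nearest genes to S100a1 were Ndufb2, a subunit of mitochondrial complex I (0.0614), and Atp5h, a subunit of the ATP synthase (0.0687). These differences were the smallest of any of the 10 genes, but they are not scaled to the size of a gene's change. Ndufb2 had 733 ± 38.7 FPKM in sham hearts and 292 ± 59.9 at 72 h (SD, n = 3). The 7 cardiomyocyte markers summed to between 60371 and 64744 FPKM in the sham mice, between 39302 and 49892 at 24 h and between 21871 and 28108 at 72 h, when 6 were lower and Nppa, the natriuretic peptide of stressed muscle, was higher. None of them was at 0, and their part in the fall of S100a1 was not tested.

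**Figure D4:**
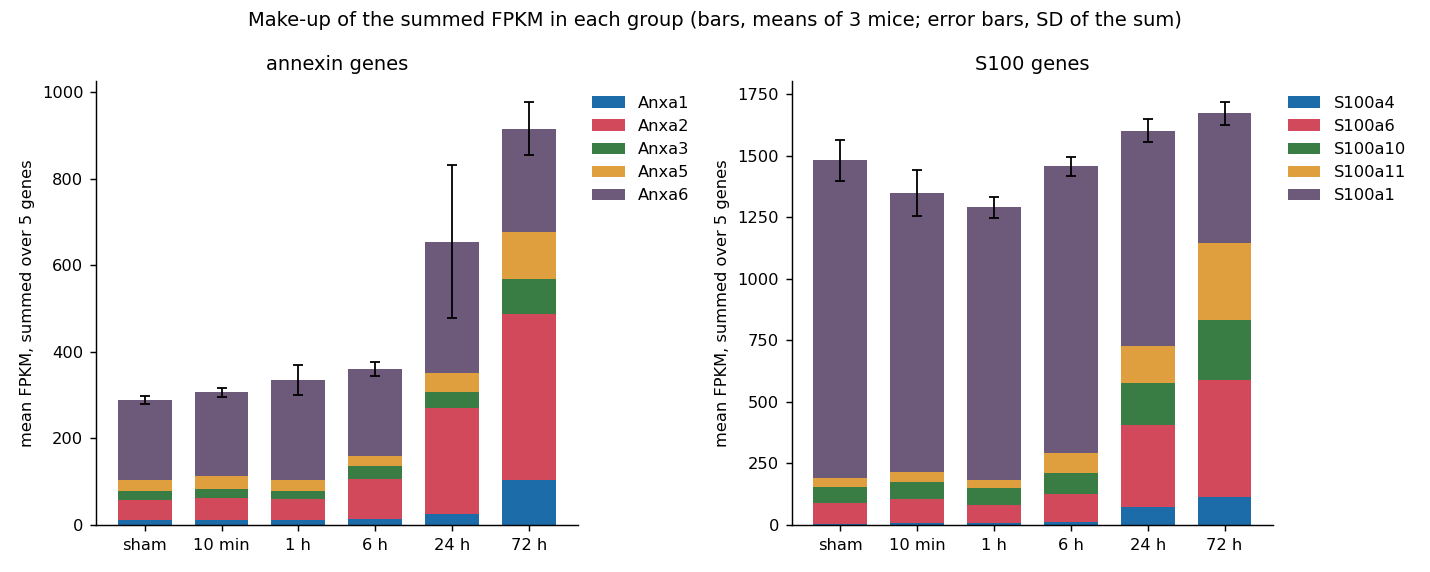
Mean FPKM of the 5 annexin genes (left) and the 5 S100 genes (right), stacked by gene for each group (error bars, SD of the sum over 3 mice). The S100 sum is 1481 in sham hearts and 1671 at 72 h, while the part of S100a1 in it shrinks from 87.2% to 31.4%. The annexin sum goes from 289 to 916.

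Between neighbouring times, 6 of the 10 genes rose from 6 h to 24 h and 0 fell (12.5% of all genes higher, 1.94% lower). These were Anxa1, Anxa2, Anxa5, S100a4, S100a6 and S100a10. Over all genes 1664 rose and 258 fell, against 403 and 368 with median-of-ratios scaling and 371 and 269 with quantile normalization. With median-of-ratios scaling 2 of the 6 calls remained, S100a4 and S100a6, and with quantile normalization those of Anxa1 and Anxa2 were lost (adjusted p = 0.0619 and 0.0533, limma). Leaving out 6 h mouse 1 gave a count of 1, and leaving out 6 h mouse 2, 6 h mouse 3 or 24 h mouse 2 gave 0 calls, and without the second 24 h mouse the adjusted p of the 6 genes lay between 0.0526 and 0.101 (limma). From 24 h to 72 h 7 genes rose and 1, S100a1, fell (29.7% of all genes higher, 13.5% lower). Over all genes, 3963 rose and 1799 fell in that interval, against 3144 and 2741 with median-of-ratios scaling and 2806 and 3341 with quantile normalization. Here Anxa2 (log2FC 0.72, adjusted p = 0.0609, and 0.000363 without the third 24 h mouse) and Anxa6 (log2FC -0.34, adjusted p = 0.137) were without a call. S100a4, S100a6 and S100a10 had log2 fold changes of 0.63, 0.54 and 0.53 in this interval (adjusted p = 0.0394, 0.0415 and 0.0173), below those of Anxa1 (2.02), Anxa5 (1.32), Anxa3 (1.12) and S100a11 (1.09), and the calls of S100a4 and S100a6 were lost with median-of-ratios scaling (adjusted p = 0.0757 and 0.092, limma). The count of genes that rose was 4 without the first 24 h, the second 24 h, the second 72 h or the third 72 h mouse.

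The order of levels within each family changed with time, read from FPKM, which are per length. In the sham group the annexins stood in the order Anxa6, Anxa2, Anxa5, Anxa3 and Anxa1, and no neighbours in that order overlapped between mice. At 72 h Anxa2 was first with 383 ± 29.4 FPKM and Anxa6 next with 240 ± 36.3, followed by Anxa5 (107 ± 3.49) and Anxa1 (104 ± 9.55), whose mice overlapped, and by Anxa3 (82.2 ± 2.53 FPKM, SD, n = 3). Sham levels of the 5 S100 genes ran from S100a1 through S100a6, S100a10 and S100a11 to S100a4, again without overlap of neighbours. Other family members are not in these orders, such as Anxa7 with 58.9 ± 4.78 FPKM and S100a16 with 81.4 ± 2.06 FPKM in sham hearts. At 72 h S100a1 and S100a6 overlapped, with 526 ± 80.9 and 476 ± 26.2 FPKM, and S100a11 (314 ± 17.5) stood above S100a10 (244 ± 12.2) and S100a4 (112 ± 12.7 FPKM). Rows up to Evi5l in alphabetical order, the annexins included, are mostly written with up to 10 significant digits and the others with at most 7. What was done to the first rows is not stated, so levels were ordered within each family, and the ratios of an annexin to an S100 gene above span both kinds of rows. The median log2 deviation of a mouse from sham differed by at most 0.0487 between them.

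All 5 S100 genes lie on chromosome 3, and 3 of them in a row of S100 genes that ends with S100a9. S100a13 starts beside S100a1 on the opposite strand, and the start windows of both genes share 204 of 300 bases. S100a13 had 36.8 ± 0.868 FPKM in sham hearts and 61.3 ± 1.78 at 72 h (log2FC 0.72 ± 0.059 SE, adjusted p 6.79e-06), while S100a1 fell. S100a8 and S100a9, the alarmin pair of neutrophils, had a log2FC against sham of 5.43 and 6.24 in the 6 h mice, 4.71 and 5.39 in the 24 h mice and 2.79 and 3.38 in the 72 h mice, all of them called. Between 24 h and 72 h neither had a call (adjusted p = 0.127 and 0.139, limma). Their 24 h mice spread widely, for S100a9 from 28.9 to 721 FPKM. S100a4 and S100a6 were called higher in that interval, but not with median-of-ratios scaling (adjusted p = 0.0757 and 0.092, limma). With 1 mouse left out, these calls held only without the third 24 h mouse (adjusted p = 0.00229 and 0.00392, limma). S100a8 and S100a9 are also among the 5 neutrophil markers above. S100a11 and S100a10 lie apart from the row, about 3009 and 3044 kb from S100a1.

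**Figure D5:**
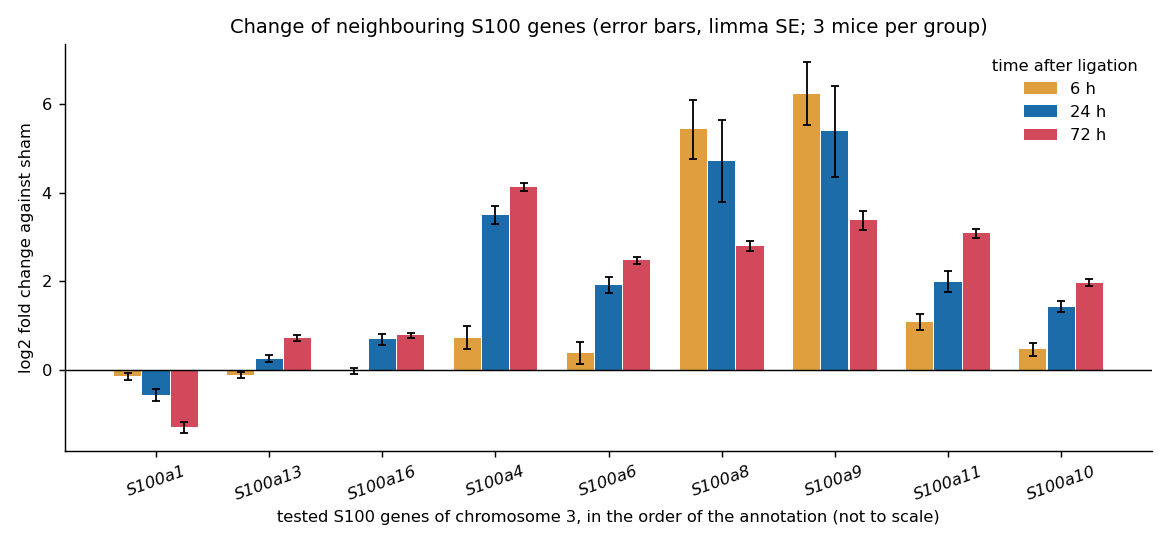
Log2 fold change against sham at 6 h, 24 h and 72 h of the 9 tested S100 genes of chromosome 3, in the order of the annotation and not to scale (bars start at 0; error bars, limma SE; 3 mice per group). S100a1 is below 0 at all 3 times and its neighbour S100a13 is at 0.72 at 72 h, while S100a8 and S100a9 are highest at 6 h.

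The rest of both families gave few measured genes. Of 7 other annexins 5 passed the filter, and of these 0 were called at 10 min and 1 h, 1 was higher at 6 h, 3 at 24 h and 4 at 72 h, when Anxa11 was lower (log2FC -0.29, adjusted p = 0.0107). Of all genes, 11.6%, 26.2% and 53.1% were higher at these times, and 24.2% were lower at 72 h. Anxa4 rose from 6.43 ± 0.797 to 32.9 ± 1.17 FPKM at 72 h (log2FC 2.19 ± 0.087 SE, adjusted p 1.11e-07). Anxa7 had its highest level at 24 h, 155 ± 41.5 FPKM beside 58.9 ± 4.78 in sham hearts, and was lower at 72 h than at 24 h (log2FC -0.82 ± 0.177 SE, adjusted p 0.00862). Of 11 other S100 genes 5 passed the filter, and 0, 2, 2, 4 and 4 were higher at 10 min, 1 h, 6 h, 24 h and 72 h, with 0 lower. The 2 at 1 h and 6 h were S100a8 and S100a9.

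Of 19 measured genes known from the repair of plasma membrane tears, 3 were higher and 2 lower in the 6 h mice, 7 and 1 in the 24 h mice, and 8 and 6 in the 72 h mice, with a median log2 fold change of 0.03 at 72 h beside 0.29 for all genes. These counts lie near the shares over all genes, which were 11.6%, 26.2% and 53.1% higher and 16.8%, 11.4% and 24.2% lower in order of time, and nothing is read from them about the list. Myof, or myoferlin, rose most, from 2.24 ± 0.0920 to 29.5 ± 4.95 FPKM at 72 h (log2FC 3.22 ± 0.113 SE, adjusted p 6.1e-08). Trim72, the muscle protein MG53 that starts the patch, fell from 173 ± 9.68 to 101 ± 16.6 FPKM at 72 h (log2FC -0.78 ± 0.113 SE, adjusted p 0.000242). Cav3, the muscle caveolin, was higher at 24 h (log2FC 0.77, adjusted p = 0.0076) and lower at 72 h (log2FC -0.56, adjusted p = 0.000279). Dysf, or dysferlin, had 49.4 ± 3.43 FPKM in sham hearts and 48.8 ± 5.54 FPKM at 72 h (adjusted p = 0.862), and Ahnak, a large partner of the complex of annexin A2 and S100A10, 218 ± 11 and 191 ± 15.4 FPKM (adjusted p = 0.0537).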

How the data were processed

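RNA of 18 mice was analysed from the FPKM table deposited by the authors. Per the methods, reads (poly-A RNA, 150 bp paired ends) were trimmed with cutadapt 1.18, mapped to mm10 with HISAT2 2.1.0 and quantified as FPKM with StringTie 1.3.4d. The annotation is not given in the sources used here. Groups came from the sample titles, where control mice are the sham mice of the study. The column names of the 3 mice at 1 h and of 6 h mouse 2 each differ by 1 character from the title they were matched to, the nearest one, so these matches rest on spelling. Log2(FPKM + 1) of genes that reached 1 FPKM in any mouse was tested two-sided with limma 3.58.1 in R 4.3.3 (lmFit, eBayes with trend), each comparison on its own 6 mice, with p-values adjusted by Benjamini-Hochberg across the table. An exact permutation test of 3 mice against 3 cannot give p below 0.1. Steps were tested on simulated data. Positions and overlaps are from GENCODE M21. All 10 genes are reported, with counts for the lists and the 2 nearest genes of each member, by root mean square difference over the 18 mice, leaving out symbols of the form Gm plus digits, Rik or a GenBank accession. This difference is not scaled to the size of a gene's change, and the added 1 shrinks changes of genes near 0 FPKM. The members and lists were chosen with earlier results of these data known. Without counts, precision comes from the spread between mice. The p-values set a difference against that spread, with the variance of each gene drawn toward a trend over all genes. Alternatives were a pseudocount of 0.1, other filters, scalings and fits, the thresholds of the study, a replicate block, and leaving out each mouse.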

Additional observations from a re-analysis of the deposited data

Results flagged for a closer look

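Anxa5 lay on both sides of its sham level at different times. Its 10 min mice, from 27.2 to 31.4 FPKM, all lay above and its 6 h mice, from 20.8 to 24.1 FPKM, all below the sham mice, from 24.8 to 26.2 FPKM. The log2 fold changes against sham differed by 0.38 between these times, and this difference was not tested. Neither time had a call against sham (adjusted p = 0.235 and 0.149, limma), and with median-of-ratios scaling the log2 fold change at 6 h was -0.07 (adjusted p = 0.589). They differed by 0.88 between 24 h and 6 h, where the direct comparison of the 24 h with the 6 h mice gave an adjusted p of 0.0206 (limma), and 0.0502 with median-of-ratios scaling. Between 72 h and 6 h they differed by 2.20, which was not tested. Single mice of both groups decided the call between 24 h and 6 h, since the adjusted p was 0.0543, 0.085 or 0.0627 without 6 h mouse 1, 2 or 3 and 0.083 without 24 h mouse 2 (limma).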

How the results depend on the processing

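Of the recomputed counts of the 10 genes called, 225 were within 1.5 times the value reported and 31 were not. The counts at 10 min and those of higher genes at 24 h (6 to 9) and 72 h (8 or 9) are among the former. With 1 mouse left out, the number of genes higher than sham ran from 0 to 1 at 1 h and from 1 to 7 at 6 h, and that of lower genes at 24 h from 0 to 1. Against the time before, higher genes ran from 1 to 6 at 6 h, from 0 to 7 at 24 h and from 4 to 8 at 72 h, and lower genes at 72 h from 0 to 1. With the thresholds of the study (p under 0.05 without adjustment, and FPKM means more than 2 times apart) there was 1 higher gene at 6 h and 0 lower at 24 h, and between neighbouring times 1 higher at 6 h, 3 at 24 h and 4 at 72 h, with 0 lower at 72 h. That rule sets aside changes under its ratio by construction. A fit of all 18 mice together gave 5 higher genes at 6 h, and 1 lower gene from 6 h to 24 h. Median-of-ratios scaling gave 2 higher genes from 6 h to 24 h, and 2 lower genes, Anxa6 and S100a1, from 24 h to 72 h. For the other settings the cause was not tested.

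A replicate block gave 5 higher genes than sham at 6 h, 0 higher from 6 h to 24 h and 2 lower from 24 h to 72 h. The replicate numbers were not taken as pairs, since the correlations of deviations of mice with the same number ran from -0.327 to 0.415 over the comparisons, and in each comparison the lowest was under 0.1. Of the recomputed log2 fold changes of single genes, 1155 kept direction and call, 90 lost and 27 gained a call, and 8 changed sign, all 8 of genes without a call. With 1 mouse left out, these ran from -0.0001 to 0.1693 for Anxa2 and from -0.0076 to 0.1414 for Anxa3 at 10 min. At 1 h they ran from -0.0324 to 0.1086 for Anxa2 and from -0.0638 to 0.2165 for S100a4, and at 6 h from -0.0223 to 0.2159 for Anxa6. For S100a1 at 6 h against 1 h they ran from -0.0024 to 0.1038, and quantile normalization gave -0.0363. Of the recomputed ratios and shares, 95 moved by less than 1 SD and 1, the ratio of Anxa1 to S100a11 in the sham group, by more, with quantile normalization. With 3 mice per group and no counts, changes smaller than the spread between mice could not be told from it.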
